A study of Mus musculus with 8 samples.

Results

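Genes of triglyceride synthesis were examined in whole liver of MøFoxO1-KO mice and WT littermates. The genes are Mogat1, Mogat2, Dgat1, Dgat2, Gpam, Agpat2, Agpat3, Lpin1, Lpin2 and Gk. These 10 genes were taken by symbol for their place in the monoacylglycerol and glycerol-phosphate pathways, among 46517 genes counted, of which 46005 have a symbol. Not all are acyltransferases, since Lpin1 and Lpin2 encode phosphatidate phosphatases and Gk encodes glycerol kinase. MøFoxO1-KO mice carried FoxO1 loxP/loxP alleles with Lyz2-Cre, and WT littermates carried the floxed alleles without Cre. Lyz2-Cre acts in myeloid cells of the whole body, whereas RNA came from all cells of the liver. All 8 mice, 4 per genotype, were C57BL/6 males that received a NASH diet, which induces nonalcoholic steatohepatitis, for 25 weeks from 6 weeks of age. Livers were taken at 31 weeks of age after a 16-h fast. Each library came from a separate mouse, named here by the number in its label, from 22 to 25 in WT littermates and from 26 to 29 in MøFoxO1-KO mice.

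Liver cells build triglyceride by joining fatty acids to glycerol one after another. In the glycerol-phosphate pathway, Gpam adds the first fatty acid to glycerol-3-phosphate, Agpat2 and Agpat3 add the next, and the lipins remove the phosphate to give diacylglycerol. In the monoacylglycerol pathway, Mogat1 and Mogat2 form diacylglycerol directly from monoacylglycerol. Both pathways meet at Dgat1 and Dgat2, which add the last fatty acid. Glycerol kinase supplies glycerol-3-phosphate from free glycerol, such as the glycerol that adipose tissue releases in fasting. The monoacylglycerol pathway is best known from the intestine, which absorbs fat by way of Mogat2, and Mogat1 is scarce in healthy mouse liver and more abundant in fatty liver.

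Total counts lay between 15253218 and 18025481 per mouse. Foxo1, the deleted gene, had 303 to 459 normalized counts in WT littermates and 290 to 429 in MøFoxO1-KO mice, so whole liver did not separate the genotypes by Foxo1 (log2 fold change -0.17, adjusted P = 0.686, edgeR quasi-likelihood test with Benjamini-Hochberg adjustment). Normalized counts are counts scaled to a common library size. The summed hepatocyte markers lay between 1012000 and 1815300 normalized counts, which makes them by far the most abundant of the marker lists. The sums of the hepatocyte, adipocyte, macrophage, stellate cell, endothelial, cholangiocyte and intestinal lists each overlapped between genotypes, although single markers did not. Of 8 hepatocyte markers, Apoa1 and Serpina1c were higher in every MøFoxO1-KO mouse (log2 fold changes 1.07 and 1.49, adjusted P = 0.0765 and 0.0370, edgeR). Of 11 macrophage markers, 8 had a higher and 3 a lower level in MøFoxO1-KO mice, with a median log2 fold change of 0.69. Among those that were lower, Gpnmb fell from between 22.9 and 141 normalized counts in WT littermates to between 1.12 and 7.59 in MøFoxO1-KO mice (log2 fold change -4.13, adjusted P = 0.0382, edgeR). Trem2 was lower (-3.88, adjusted P = 0.0983, edgeR) and Timd4 higher (2.08, adjusted P = 0.0968, edgeR) in every MøFoxO1-KO mouse, and Marco overlapped at 5.18 (adjusted P = 0.0870, edgeR). Col1a1 of the 7 stellate cell and fibroblast markers was lower in every MøFoxO1-KO mouse (-1.28, adjusted P = 0.193, edgeR), and Adrb3 of the adipocyte markers was higher (1.52, adjusted P = 0.120, edgeR). Of the 8 adipocyte markers, Lep was at 0 in all mice and Adipoq, Plin1 and Retn had at most 3 counts in any mouse. Fabp4, Lipe and Adrb3 were detected in every mouse, and Cfd ranged from 0 to 4513.5 normalized counts. Of the 7 intestinal markers, Cdx1 and Cdx2 were at 0 in all mice, whereas 3, Fabp2, Apoa4 and Lgr5, had enough counts to be tested. Vil1 and Muc2 had few counts. Vil1 was lower in every MøFoxO1-KO mouse, at 1.90 to 2.39 normalized counts against 2.95 to 8.96 in WT littermates. Among WT littermates, mouse 23 stood apart, being the highest or the lowest of the 4 for 70.3% of the 13278 tested genes. Among MøFoxO1-KO mice, mouse 28 stood apart in single genes such as the macrophage receptor Marco, at 66.4 normalized counts against 737 to 2712 in the other mice of its group. Over all tested genes it did not, being the highest or the lowest of its group for 53.4%, against 41.8 to 52.8% for the others.

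Mogat1 (ENSMUSG00000012187) is the member on which the comparison of the genotypes turned, and its promoter is shown for that reason. The gene lies on chromosome 1 of GRCm38 from 78510991 to 78538173 on the plus strand. The window from 250 bases before to 50 bases after its RefSeq start site is chr1:78510810-78511109, plus strand of GRCm38.p6. Capitals mark its single CCAAT box, which reads ATTGG on this strand and begins 24 bases after the start site.
Mogat1: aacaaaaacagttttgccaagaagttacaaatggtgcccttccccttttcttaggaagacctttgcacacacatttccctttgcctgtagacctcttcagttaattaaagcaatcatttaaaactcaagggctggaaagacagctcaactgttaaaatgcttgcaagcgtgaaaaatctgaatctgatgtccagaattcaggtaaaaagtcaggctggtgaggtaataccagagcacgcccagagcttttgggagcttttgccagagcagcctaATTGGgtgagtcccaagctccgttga
RefSeq promoter windows of 300 bases were matched for 7 of the 10 members, and Mogat2, Dgat1 and Dgat2 had none in the table. On both strands, CCAAT occurred in 37.4% of all 32851 windows and among the members in Mogat1, Gpam and Lpin2. The FoxO motif GTAAACA occurred in 3.65% of windows and among the members in Lpin2. The E-box CACGTG occurred in 7.15% of windows and among the members in Gk and Lpin2. The PPAR direct repeat, known as DR1, occurred in 0.0396% of windows and the sterol regulatory element TCACNCCAC in 1.24%, and neither occurred in a window of the 7 members. None of these motifs contains another. A match is a description of letters and not of binding.

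Of the 10 genes, 9 had enough counts to be tested, and 1 of these, Mogat1, was called, which required that the adjusted P be under 0.05 and that the log2 fold change exceed 1.5 in size. Over all 13278 tested genes, 0.188% met both limits, and 0.136% met them in the direction of a lower level in MøFoxO1-KO mice. Mogat1 was also the only member whose genotypes did not overlap, against 9.71% of tested genes without overlap in either direction and 4.71% that were lower in every MøFoxO1-KO mouse than in every WT littermate. With DESeq2, Mogat1 was again the only member called, beside 1.22% of the genes it tested. Of the 9 members, 3 had a higher and 6 a lower mean in MøFoxO1-KO mice, and their median log2 fold change was -0.10, compared with -0.01 over all tested genes. At an unadjusted P under 0.05, 2 members were lower, Mogat1 and Lpin1, and none was higher, beside 8.06% and 8.65% of all tested genes.

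**Figure D1:**
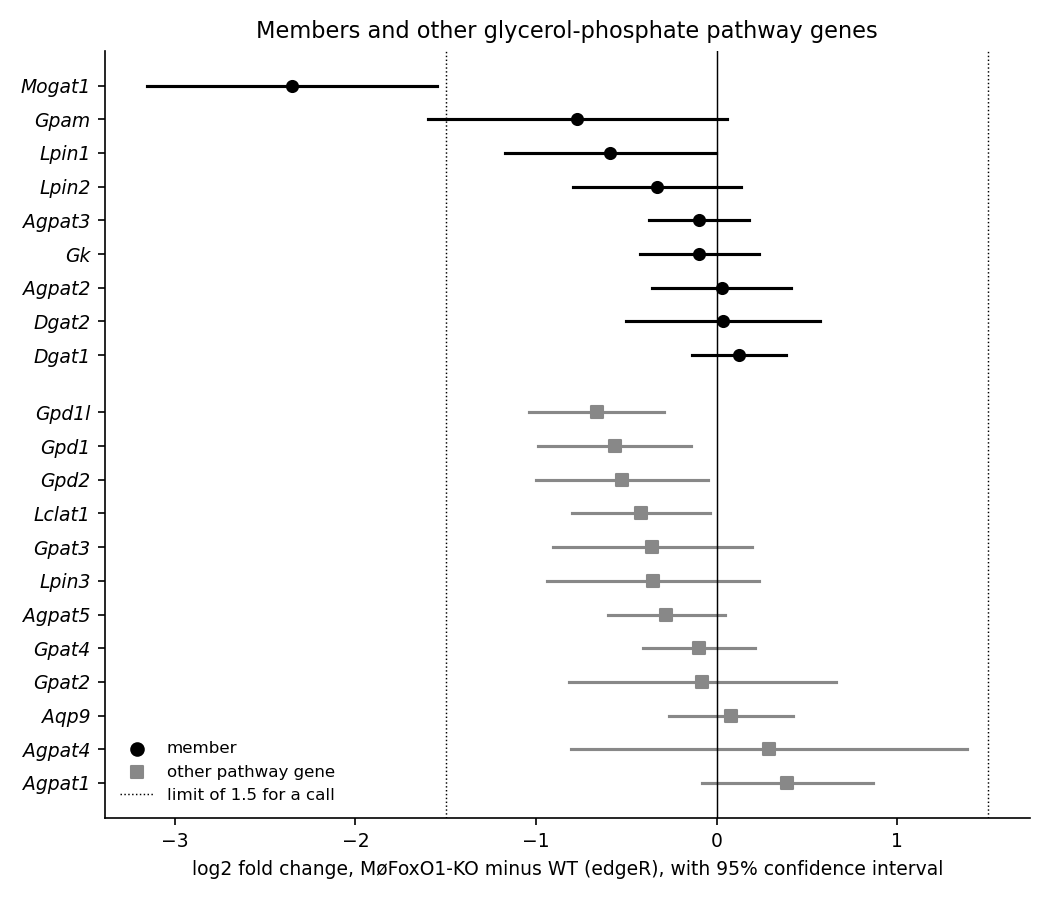
Log2 fold change of MøFoxO1-KO mice over WT littermates, on the horizontal axis, with 95% confidence intervals from edgeR as bars. Shown are the tested members and the tested other genes of the glycerol-phosphate list, which include the glycerol channel Aqp9. Mogat1 sits at -2.35 with its interval from -3.15 to -1.55, and the estimates of the other members lie between -0.77 and 0.12.

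Mogat1 encodes monoacylglycerol acyltransferase 1 of the endoplasmic reticulum. In WT littermates 22, 23, 24 and 25, Mogat1 had 242, 474, 144 and 210 normalized counts. In MøFoxO1-KO mice 26, 27, 28 and 29, it had 38.3, 65.7, 45.6 and 60.5 normalized counts. Every MøFoxO1-KO mouse was below every WT littermate, and WT mouse 23 was the highest of all. The mean fell from 267 ± 144 (SD, n = 4) in WT littermates to 52.5 ± 12.7 (SD, n = 4) in MøFoxO1-KO mice, which was 5.11-fold lower as fitted. The log2 fold change was -2.35 (SE 0.36, 95% confidence interval -3.15 to -1.55) with an adjusted P of 0.0337 by the quasi-likelihood test of edgeR (Benjamini-Hochberg). The exact two-sided permutation test gave P = 0.0286, the smallest that 4 mice against 4 allow. By unadjusted P, Mogat1 ranked 23 among the 13278 tested genes, and by the size of the decrease it ranked 45. In bulk liver, fewer cells of a type and less RNA per cell cannot be told apart. The part of the hepatocyte, macrophage and stellate cell markers that moved with the genotype, given above, in the Mogat1 difference was not tested.

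The direction of the Mogat1 difference did not rest on WT mouse 23 or MøFoxO1-KO mouse 28. Without WT mouse 23, the log2 fold change of Mogat1 was -1.92 with an adjusted P of 0.0257 by edgeR, and without both mice it was -1.85 with an adjusted P of 0.0255. With limma-voom, the adjusted P of Mogat1 was 0.100. It was over 0.05 in 5 of the 8 edgeR fits that left out 1 mouse, namely 0.0729 without WT mouse 22, 0.0563 without WT mouse 25, 0.115 without MøFoxO1-KO mouse 26, 0.122 without mouse 27 and 0.0788 without mouse 29.

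Part of the Mogat1 exons is shared with another gene. Mogat1 shares 200 bases, or 12.8% of its exon length, with BC035947 on the opposite strand, and without strand information the reads of both genes cannot be told apart there. BC035947 had 5, 19, 17 and 18 counts in WT littermates 22 to 25. It had 0, 1, 0 and 1 counts in MøFoxO1-KO mice 26 to 29. These counts were also lower in all MøFoxO1-KO mice. They were small beside the 1107 Mogat1 counts summed over WT littermates and the 197 summed over MøFoxO1-KO mice. Counts per whole gene do not tell how many reads fell in the shared bases, since the handling of strand is not given.

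Mogat2 (ENSMUSG00000052396), the intestinal isozyme, was close to absent. WT littermates 22 to 25 had 1, 1, 5 and 2 counts of Mogat2, and MøFoxO1-KO mice 26 to 29 had 1, 2, 6 and 0. The sums were 9 counts in each genotype, and no difference was detectable at this depth (exact permutation P = 0.857). Mogat2 had too few counts to enter the edgeR test. Per kilobase of exon, Mogat1 made up 90.4 to 100% of the summed level of both isozymes in every mouse. The sum of both isozymes was 173 ± 91.5 (SD, n = 4) normalized counts per kilobase in WT littermates and 34.9 ± 7.97 in MøFoxO1-KO mice, without overlap.

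**Figure D2:**
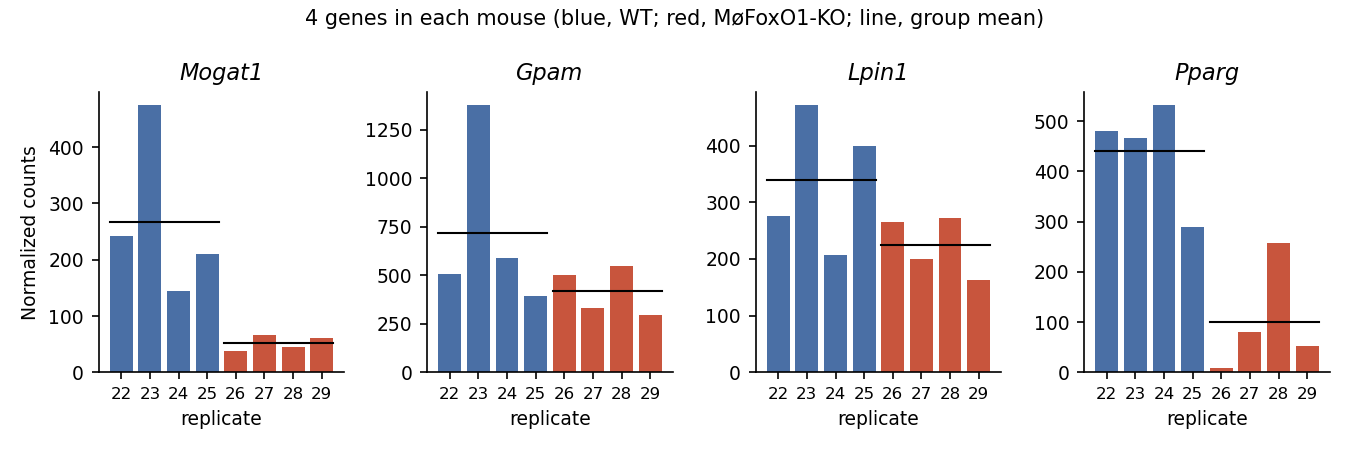
Normalized counts of Mogat1, Gpam, Lpin1 and Pparg, on the vertical axis, with 1 bar per mouse and a line at the mean of each genotype. The genotypes are apart for Mogat1, at 144 to 474 in WT littermates against 38.3 to 65.7 in MøFoxO1-KO mice. They are also apart for Pparg, at 289 to 532 against 8.63 to 257. They overlap for Gpam and Lpin1, with WT mouse 23 the highest of all mice for both.

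The Mogat1 level was also set against each of the other 8 tested members within the same mouse, which removes the scaling of the library. These 8 ratios were added after the values had been seen, so they are a description without a test. The log2 ratio of Mogat1, per kilobase of exon, was lower in MøFoxO1-KO mice for each of the 8 partners, by between 1.59 (to Gpam) and 2.36 (to Dgat1). The mean log2 ratio to Dgat1 was -0.03 ± 0.86 (SD, n = 4) in WT littermates and -2.39 ± 0.29 (SD, n = 4) in MøFoxO1-KO mice. The genotypes did not overlap for any of the 8 ratios, as they had not for Mogat1 itself. Without WT mouse 23 and MøFoxO1-KO mouse 28, the differences lay between -2.08 (to Agpat2) and -1.28 (to Lpin2). All 8 ratios share the Mogat1 values, so they are not independent of each other.

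**Figure D3:**
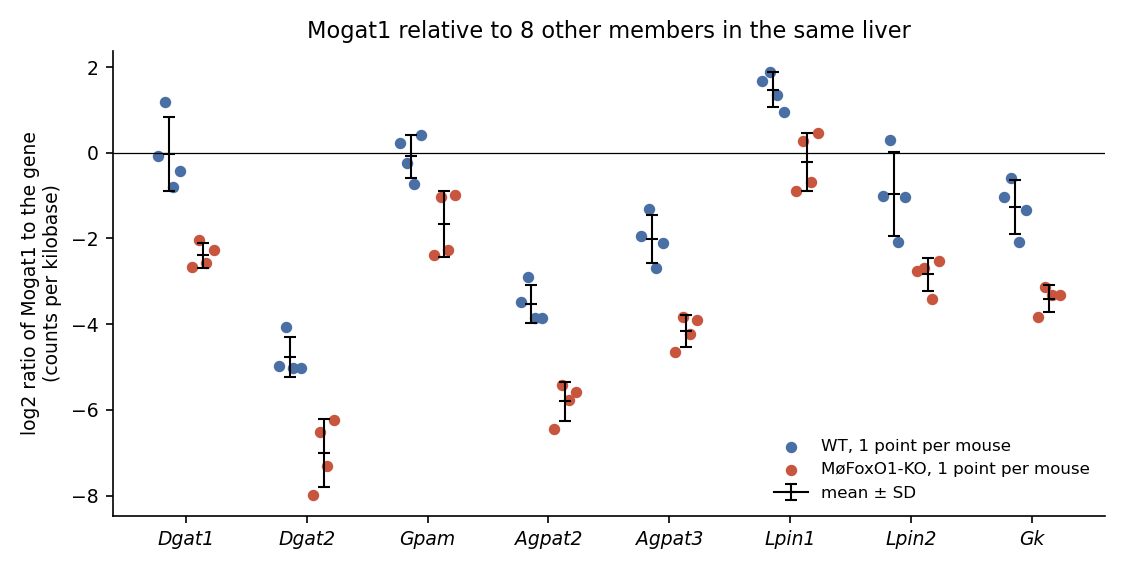
Log2 ratio of Mogat1 to each of the other 8 tested members in every mouse, on the vertical axis, with the partner gene on the horizontal axis and 1 point per mouse. For each partner, the 4 MøFoxO1-KO mice lie below the 4 WT littermates, with mean differences from -1.59 for Gpam to -2.36 for Dgat1.

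The genes whose pattern over the 8 mice was most like that of Mogat1 were sought by the root-mean-square difference of mean-centred log2 counts, scaled to library size, over 13269 genes. The nearest was Ttc39a, at a difference of 0.342, beside a median of 1.23 over all genes compared. The next were Ttc39aos1, named as antisense to Ttc39a, at 0.437, and Abcc4, an exporter of cyclic nucleotides and bile acids, at 0.446. Abcc4 had 239 ± 142 (SD, n = 4) normalized counts in WT littermates and 33.6 ± 11.9 in MøFoxO1-KO mice (log2 fold change -2.82, adjusted P = 0.0337, edgeR with Benjamini-Hochberg adjustment). Ttc39a had a log2 fold change of -2.26 with an adjusted P of 0.0765, and Ttc39aos1 one of -3.06 with an adjusted P of 0.0993, both by edgeR. WT mouse 23 was the highest mouse for all 3 genes, as it was for Mogat1. The genes were picked for their likeness to Mogat1 over these same mice. Their shared peak and their lower levels in MøFoxO1-KO mice follow in part from that choice.

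The last step of synthesis was not separated by genotype. Dgat2 (ENSMUSG00000030747) had 10982, 11423, 6770 and 9801 normalized counts in WT littermates 22 to 25. It had 14086, 8689, 10518 and 6631 normalized counts in MøFoxO1-KO mice 26 to 29. The highest and the lowest of the 8 mice were both MøFoxO1-KO mice, so the range of WT littermates lay inside that of MøFoxO1-KO mice. The log2 fold change of Dgat2 was 0.03 (SE 0.24, 95% confidence interval -0.50 to 0.57) with an adjusted P of 0.957 by edgeR, and it was 0.12 without WT mouse 23. Dgat1 (ENSMUSG00000022555), the isozyme that also esterifies retinol, had 496, 412, 496 and 554 normalized counts in WT littermates and 484, 534, 539 and 577 in MøFoxO1-KO mice. The groups overlapped, with the lowest value in WT mouse 23 and the highest in MøFoxO1-KO mouse 29. The means were 489 ± 58.3 (SD, n = 4) and 533 ± 38.0 (SD, n = 4), with a log2 fold change of 0.12 (95% confidence interval -0.14 to 0.38, adjusted P = 0.638, edgeR), which was 0.05 without WT mouse 23. Dgat2 exceeded Dgat1 per kilobase of exon by 15.6 to 39.4 times in every mouse and made up 94.0 to 97.5% of their sum. Dgat2 and Mogat2 are neighbours on chromosome 7, with 36370 bases between them, and their counts per kilobase were the highest and the lowest of the members.

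Gpam (ENSMUSG00000024978), the mitochondrial glycerol-3-phosphate acyltransferase, had the lowest fold change after Mogat1. WT littermates 22 to 25 had 508, 1376, 591 and 391 normalized counts of Gpam, and MøFoxO1-KO mice 26 to 29 had 500, 331, 548 and 298. The groups overlapped, and WT mouse 23 alone was far above all other mice. The means were 716 ± 447 (SD, n = 4) and 419 ± 123 (SD, n = 4), with a log2 fold change of -0.77 (SE 0.37, 95% confidence interval -1.60 to 0.06, adjusted P = 0.335, edgeR). Without WT mouse 23, the log2 fold change of Gpam was -0.24. Gpat4 encodes its counterpart in the endoplasmic reticulum. The RNA of Gpat4 was the more abundant of this step, at 57.7 to 76.9% of the summed level per kilobase against 8.40 to 27.9% for Gpam. Gpat4 had a log2 fold change of -0.10 (adjusted P = 0.769, edgeR).

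RNA of the acylglycerol-phosphate acyltransferases Agpat2 and Agpat3 was abundant and close in both genotypes. Agpat2 (ENSMUSG00000026922), whose human counterpart is mutated in congenital lipodystrophy, ranged from 2853 to 4855 normalized counts in WT littermates and from 3423 to 4644 in MøFoxO1-KO mice. Its log2 fold change was 0.03 (95% confidence interval -0.36 to 0.41, adjusted P = 0.955, edgeR). Agpat3 (ENSMUSG00000001211) ranged from 4405 to 5745 normalized counts in WT littermates and from 4195 to 4721 in MøFoxO1-KO mice. Its log2 fold change was -0.10 (95% confidence interval -0.38 to 0.18, adjusted P = 0.737, edgeR). The WT range of each enzyme reached above that of MøFoxO1-KO mice, in both cases through WT mouse 23. Agpat2 made up 64.9 to 74.6% of the summed level per kilobase of the 5 Agpat genes counted. Agpat2 shares 64 exon bases with Egfl7 on the opposite strand, which is 3.0% of its exon length.

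**Figure D4:**
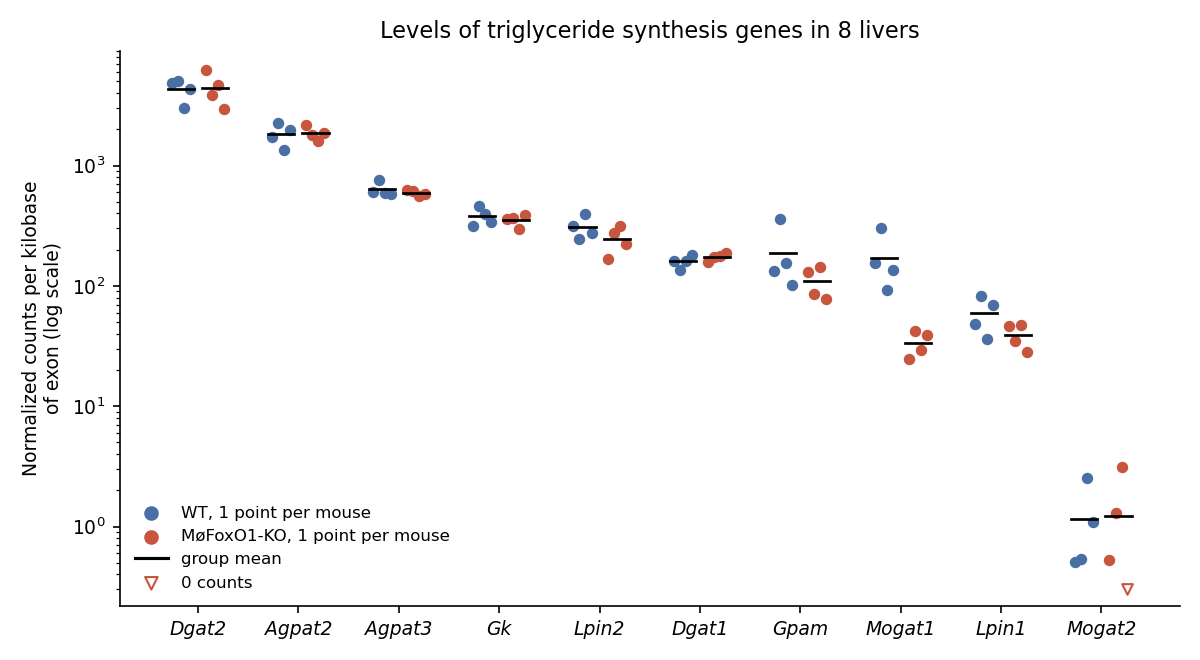
Normalized counts per kilobase of exon, on a log axis, for the 10 members in each of the 8 mice, ordered by their mean level. Dgat2 was highest in every mouse and Mogat2 lowest, and Mogat1 is the only member whose genotypes are apart.

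The lipins form diacylglycerol from phosphatidate, and Lpin1 also acts as a coactivator of fatty acid oxidation genes that fasting induces. Lpin1 (ENSMUSG00000020593) had 276, 471, 208 and 399 normalized counts in WT littermates 22 to 25, and 265, 199, 272 and 162 in MøFoxO1-KO mice 26 to 29. WT mice 22, 23 and 25 were above all MøFoxO1-KO mice, mouse 22 only narrowly, and WT mouse 24 was within their range. The means were 339 ± 119 (SD, n = 4) and 225 ± 52.9 (SD, n = 4). The log2 fold change was -0.59 (SE 0.26, 95% confidence interval -1.17 to -0.0041), with an unadjusted P of 0.0487 and an adjusted P of 0.296 by edgeR. Without WT mouse 23, the log2 fold change of Lpin1 was -0.39.

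Lpin2 (ENSMUSG00000024052), the main lipin of liver, had 3834, 3025, 4800 and 3388 normalized counts in WT littermates and 2048, 3361, 3816 and 2742 in MøFoxO1-KO mice. The groups overlapped, with MøFoxO1-KO mice 26 and 29 below all WT littermates and WT mouse 24 the highest of all. The means were 3762 ± 767 (SD, n = 4) and 2992 ± 768 (SD, n = 4), with a log2 fold change of -0.33 (SE 0.21, 95% confidence interval -0.80 to 0.14, adjusted P = 0.462, edgeR). It was -0.19 without WT mouse 24 or without MøFoxO1-KO mouse 26, and -0.55 without WT mouse 23 and MøFoxO1-KO mouse 28. Lpin2 made up 68.7 to 87.5% of the summed level of Lpin1, Lpin2 and Lpin3 per kilobase.

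Gk (ENSMUSG00000025059) lies on chromosome X from 85701937 to 85776819 of GRCm38. It had 2444, 3549, 3056 and 2647 normalized counts in WT littermates 22 to 25, and 2760, 2863, 2297 and 3015 in MøFoxO1-KO mice 26 to 29. The lowest mouse was a MøFoxO1-KO mouse and the highest was WT mouse 23, and the groups overlapped. The log2 fold change of Gk was -0.10 (SE 0.15, 95% confidence interval -0.43 to 0.23, adjusted P = 0.783, edgeR). Aqp9, the glycerol channel of hepatocytes, had a log2 fold change of 0.08 (adjusted P = 0.840, edgeR).

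WT mouse 23 was the highest or the lowest WT littermate for all 9 tested members, the highest for 7 and the lowest for Dgat1 and Lpin2, beside 70.3% of all tested genes. Some of its clock genes stood apart as well. Arntl, the activator of the circadian clock, was at 272 normalized counts in mouse 23 and at 58.1 to 104 in the other WT littermates. Dbp, an output gene of the clock, was at 286 normalized counts in mouse 23 and at 697 to 1839 in the others. Among MøFoxO1-KO mice, Arntl was lowest in mouse 28, at 34.2 normalized counts against 69.3 to 95.2. Dbp was highest in mouse 28, at 2015 against 559 to 1994, so clock genes varied within both genotypes. The summed endothelial markers were at 1533 normalized counts in mouse 23 and at 2676 to 3353 in the other WT littermates. The part of these differences in the values of Gpam, Lpin1 and Mogat1 was not tested.

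In the order of mean level per kilobase over the 8 mice, Dgat2 came first at 4381 normalized counts per kilobase, followed by Agpat2 at 1850, Agpat3 at 612 and Gk at 365. The ranges of these neighbours over the 8 mice did not overlap. Lpin2 at 276, Dgat1 at 167, Gpam at 148, Mogat1 at 103 and Lpin1 at 49.2 followed, and from Gk down to Lpin1 neighbours in this order overlapped in their ranges. Mogat2 came last at 1.20, apart from Lpin1. The balance of isozymes was compared as log2 ratios per kilobase in each mouse, with exact permutation tests over 4 pairs. The ratio of Dgat2 to Dgat1 differed by -0.12 (exact P = 0.743), that of Agpat2 to Agpat3 by 0.14 (exact P = 0.457) and that of Lpin1 to Lpin2 by -0.20 (exact P = 0.714). The ratio of Mogat1 to Mogat2 differed by -2.02 (exact permutation P = 0.143, 0.571 after Benjamini-Hochberg adjustment), and its groups overlapped. Mogat2 had only 0 to 6 counts per mouse, so this ratio depends on the 0.5 counts added. MøFoxO1-KO mouse 29, with 0 Mogat2 counts, had the highest ratio of its group. With 5 counts added, the difference was -2.23 (exact permutation P = 0.0286).

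The other genes of the pathway were described from 5 lists with 71 genes, of which 66 were tested. None had an adjusted P under 0.05 by edgeR with Benjamini-Hochberg adjustment, against 0.294% of all tested genes. At an unadjusted P under 0.05, 4 of the 66 had a higher and 14 a lower level in MøFoxO1-KO mice, beside 8.65% and 8.06% of all tested genes. DESeq2 gave 4 genes with an adjusted P under 0.05 (Aqp7, Gpd1l, Slc27a1 and Plpp2), beside 4.02% of the genes it tested. The median log2 fold change of the 66 was -0.10, as for the 9 tested members, and 2 were higher and 6 lower without overlap of the genotypes, where all tested genes gave 5.0% and 4.71%.

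The list of other glycerol-phosphate pathway genes holds the glycerol channels Aqp3, Aqp7 and Aqp9 beside enzymes. Of its 15 genes, 12 were tested and 4 were lower at an unadjusted P under 0.05. These included all 3 glycerol-3-phosphate dehydrogenases tested, which link glycolysis to the glycerol backbone. Gpd1l had 770 ± 107 (SD, n = 4) normalized counts in WT littermates and 485 ± 110 in MøFoxO1-KO mice (log2 fold change -0.67, adjusted P = 0.124 by edgeR and 0.0217 by DESeq2), without overlap. Gpd1, the cytosolic enzyme, had 6739 ± 2059 and 4555 ± 249 normalized counts (log2 fold change -0.57, adjusted P = 0.198, edgeR), also without overlap. Without WT mouse 23, the log2 fold change of Gpd1 was -0.33. Gpd2, the mitochondrial enzyme, had a log2 fold change of -0.52 and Lclat1, which acylates lysocardiolipin, one of -0.42, both with an adjusted P of 0.259 by edgeR. These values were -0.265 for Gpd2 and -0.25 for Lclat1 when WT mouse 23 was left out. The median of the list was -0.32, the lowest of the 5.

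Fatty acid uptake and activation genes were mixed, with 7 higher and 5 lower of 12 tested. Slc27a1, a fatty acid transporter and activating enzyme, had 425 ± 117 (SD, n = 4) normalized counts in WT littermates and 218 ± 81.8 in MøFoxO1-KO mice (log2 fold change -0.96, adjusted P = 0.147, edgeR). Its adjusted P was 0.0408 without MøFoxO1-KO mouse 28, at a log2 fold change of -1.25, and 0.0242 with DESeq2. Fabp1, the liver fatty acid binding protein, had a log2 fold change of 0.57 (adjusted P = 0.245, edgeR), which was 0.17 with a gene length offset. Genes at the branch points of phosphatidate and diacylglycerol were lower in 11 of 15. The lipid phosphate phosphatase Plpp2 had 530 ± 89.9 (SD, n = 4) and 345 ± 62.0 normalized counts (log2 fold change -0.62, adjusted P = 0.131 by edgeR and 0.0357 by DESeq2), without overlap. Dgkz, a diacylglycerol kinase, had a log2 fold change of -0.30 and Cds2, which makes CDP-diacylglycerol from phosphatidate, had one of -0.32, whereas Pemt, which methylates phosphatidylethanolamine, had one of 0.38. Their adjusted P values by edgeR were 0.219, 0.247 and 0.225.

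Of 13 tested genes of triglyceride breakdown, 5 were higher and 8 lower. Pnpla2, the adipose triglyceride lipase, had 2119 ± 204 (SD, n = 4) normalized counts in WT littermates and 1694 ± 102 in MøFoxO1-KO mice (log2 fold change -0.32, adjusted P = 0.212, edgeR), without overlap. Mgll and Abhd6, which hydrolyse the monoacylglycerol that Mogat1 acylates, had log2 fold changes of -0.46 and -0.37 with adjusted P values of 0.260 and 0.272 by edgeR. The log2 fold change of Mgll was -0.24 without WT mouse 23. Aadac, a lipase of the endoplasmic reticulum, had a log2 fold change of 0.44 (adjusted P = 0.193, edgeR).

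Of 14 tested partners and regulators, 7 were higher and 7 lower. Pparg, a nuclear receptor of lipid storage, had 480, 466, 532 and 289 normalized counts in WT littermates 22 to 25. It had 8.63, 81.2, 257 and 51.5 normalized counts in MøFoxO1-KO mice 26 to 29. All MøFoxO1-KO mice were below all WT littermates, with mouse 28 closest to them. The log2 fold change of Pparg was -2.14 (SE 0.67, adjusted P = 0.181, edgeR), and without MøFoxO1-KO mouse 28 it was -3.24 with an adjusted P of 0.0376. For Mogat1, mouse 28 lay inside the range of its group, and mouse 26 was the lowest of its group for both genes. A relation between Pparg and Mogat1 was not tested. Nr1h3, which encodes the oxysterol receptor LXRα, was higher in every MøFoxO1-KO mouse (log2 fold change 0.31, adjusted P = 0.212, edgeR). Fitm2, which partitions triglyceride into lipid droplets, had a log2 fold change of -0.44 and the coactivator Ppargc1a one of -0.53, with adjusted P values of 0.211 and 0.243 by edgeR.

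Aqp7, the glycerol channel best known from adipocytes, was among the listed genes with too few counts for the edgeR test, and it was chosen after its values were seen. It had 23, 60, 37 and 8 counts in WT littermates 22 to 25. It had 0, 2, 4 and 5 counts in MøFoxO1-KO mice 26 to 29. All MøFoxO1-KO mice were below all WT littermates (exact permutation P = 0.0286), although WT mouse 25 was 3 counts above the highest of them. When no filter was applied, the log2 fold change of Aqp7 was -3.37 (SE 0.72, adjusted P = 0.0337, edgeR). Of the 8 adipocyte markers, Lep, Adipoq, Plin1 and Retn had at most 3 counts in any mouse. The 4 that were tested, Fabp4, Lipe, Adrb3 and Cfd, had log2 fold changes of 0.20, 0.03, 1.52 and -0.12. The summed adipocyte list overlapped between genotypes, but Cfd weighed heavily in it. In MøFoxO1-KO mouse 28, Cfd had 4513.5 of the 5338.3 normalized counts of the list. The part of adipocyte RNA in the Aqp7 difference was not tested.

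**Figure D5:**
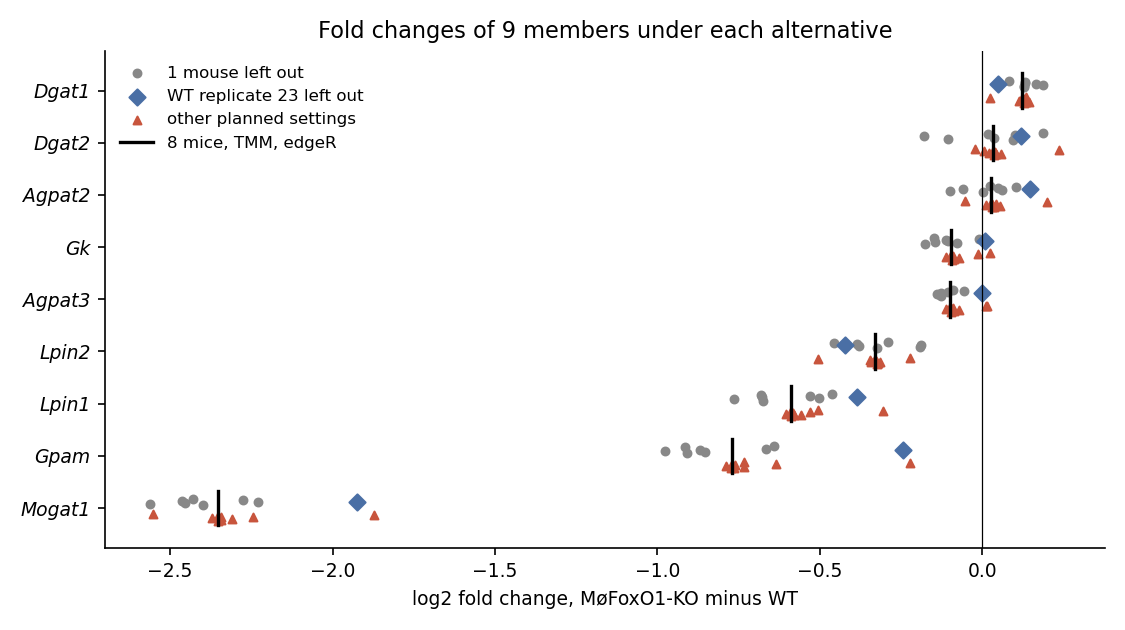
Log2 fold change of each tested member, on the horizontal axis, under every alternative setting, with the reported estimate marked. Mogat1 stayed between -2.56 and -1.87 under all settings shown, whereas Dgat2, Agpat2, Agpat3 and Gk lay on both sides of 0.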

How the data were processed

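Polyadenylated RNA of whole liver was sequenced in 8 mice, 4 per genotype. The authors deposited read counts per gene, without normalization, with exon coordinates on GRCm38. STAR, featureCounts and mm10 are named in the submitters' processing notes, but how strand and multi-mapping reads were handled is not given in the sources used here. Symbols were taken from GENCODE M21. Genes with low counts were removed by filterByExpr (minimum count 10, minimum total 15), which kept 13278 genes. After TMM scaling, genotypes were compared in edgeR 4.0.16 (R 4.3.3) by its quasi-likelihood F test, with Benjamini-Hochberg adjustment and no covariates. Normalized counts per kilobase use the summed exon length over the annotated transcripts of a gene. Levels and shares compared between genes are therefore approximate, and they describe RNA only. Ratios of isozymes had 0.5 counts added. Permutation tests were exact and two-sided (scipy 1.17.1). Total counts of 15253218 to 18025481 per mouse limit the precision for genes with few counts, such as Mogat2.

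Members, lists and tests were chosen with earlier results of these data known. Named were all members, per pathway list the 5 smallest P values under 0.05, and per member without overlap the 3 genes most like it. Alternatives were DESeq2 1.42.0, its size factors, upper-quartile normalization, no filter, a minimum of 10 counts per mouse, limma-voom (limma 3.58.1), the robust option of edgeR, 1 surrogate variable (sva 3.50.0), a gene length offset, and leaving out each mouse. Leaving out WT mouse 23 with MøFoxO1-KO mouse 28, and the ratios of Mogat1 to other members, were added after seeing the data. Each tool was first tested on simulated counts.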

Additional observations from a re-analysis of the deposited data

Results flagged for a closer look

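In 6 of the 64 groups of 4 mice examined (members, named pathway genes and isozyme ratios, by genotype), 1 mouse stood apart from the other 3 by more than Dixon's critical value for the gap over the range. Chance alone gives this in about 1 in 20 groups that are independent. The groups here share the same mice, and the pathway genes were named for their small P. The count can therefore not be measured against that rate. WT mouse 23 was the highest for Agpat3, at 5745 normalized counts against 4405 to 4533 in the other WT littermates, for Gpd1, at 9826 against 5640 to 5760, and for Fitm2, at 1624 against 1119 to 1201. MøFoxO1-KO mouse 26 was the highest of its group for Lclat1, at 684 normalized counts against 535 to 556, and the lowest for Pnpla2, at 1542 against 1739 to 1750. MøFoxO1-KO mouse 28 was the highest of its group for Slc27a1, at 341 normalized counts against 169 to 186.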

How the results depend on the processing

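No paired analysis was possible because the replicate numbers of the labels are not shared between the genotypes. Mogat1 was lower under every alternative, at log2 fold changes of -2.55 to -1.85 over the 10 other settings and -2.56 to -1.92 with 1 mouse left out, and its adjusted P ranged from 5.1e-08 (DESeq2) to 0.100 (limma-voom, log2 fold change -2.25) and from 0.0177 to 0.122. The count of members called, as that at an adjusted P under 0.05 alone, was 1 and became 0 with limma-voom and 0 to 1 with 1 mouse left out. The count of all genes called, 25 by edgeR, was 177 with DESeq2, 120 without a filter, 13 with limma-voom, 79 without WT mouse 23 and MøFoxO1-KO mouse 28, and 3 (without WT mouse 25) to 82 (without MøFoxO1-KO mouse 28) with 1 mouse left out. Other pathway genes with an adjusted P under 0.05 numbered 0 by edgeR, 4 with DESeq2 (Aqp7, Gpd1l, Slc27a1 and Plpp2), 1 without a filter (Aqp7), 1 without both mice (Ces1g) and 0 to 3 with 1 mouse left out, 3 being Ces1g, Pparg and Slc27a1 without MøFoxO1-KO mouse 28. Small log2 fold changes reversed with the length offset for Dgat2 (-0.0225), Agpat2 (-0.0522), Agpat3 (0.0153) and Gk (0.0236), with a surrogate variable for Agpat3 (0.0119), and without both mice for Agpat3 (0.0392) and Gk (0.0929). With 1 mouse left out they ranged from -0.18 to 0.19 for Dgat2, -0.10 to 0.15 for Agpat2, -0.14 to 0.0002 for Agpat3 and -0.18 to 0.0092 for Gk, and those of Gpam from -0.98 to -0.24. The causes were not tested. The difference in the log2 ratio of Mogat1 to Mogat2 was -2.23 (exact permutation P = 0.0286) with 5 counts added and -2.71 to -1.42 with 1 mouse left out, that of Dgat2 to Dgat1 -0.35 to 0.10, that of Agpat2 to Agpat3 0.02 to 0.22 and that of Lpin1 to Lpin2 -0.54 to 0.08. With 1 mouse left out, exact tests cannot give a P under 0.0571. With a surrogate variable, log2 fold changes moved by over 1.5 times for Gpam (-0.22), Lpin1 (-0.31), Lpin2 (-0.50), Gpd1 (-0.31), Gpd2 (-0.25), Lclat1 (-0.20), Mgll (-0.22), Fitm2 (-0.29) and Fabp1 (0.37), and with the length offset for Fabp1 (0.17), Cds2 (-0.21) and Aadac (0.27). By direction and by the joint limits on adjusted P and a log2 fold change of 1.5, 143 of 162 values for members and 322 of 323 for named pathway genes were as reported, a count that leaves out the pathway genes above that passed the adjusted P alone.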

Other observations

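Genes of the fasting response were lower in 11 of 12 in MøFoxO1-KO mice, with a median log2 fold change of -0.21, beside -0.01 over all tested genes, and the smallest adjusted P of the list was 0.183 by edgeR with Benjamini-Hochberg adjustment. Only 1 of the 12 had an unadjusted P under 0.05, and none had separate genotypes. Of 13 clock genes, 6 were higher and 7 lower, and none had an unadjusted P under 0.05. Summed macrophage markers lay between 3038 and 5258 normalized counts in WT littermates and between 3225 and 14483 in MøFoxO1-KO mice. Single markers went both ways, with 8 of 11 higher and 3 lower in MøFoxO1-KO mice. Gpnmb and Trem2 were lower and Timd4 higher in every MøFoxO1-KO mouse. All 6 endothelial markers had a higher mean and all 5 cholangiocyte markers a lower mean in MøFoxO1-KO mice, none at an unadjusted P under 0.05.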
